A study of Mus musculus with 4 samples.

Results

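The genes described here are 34 mouse genes of fatty acid synthesis, elongation, desaturation, activation, triglyceride storage and release. They were taken by name from a fixed list, and each was read through the brightest probe set that the array's gene table gives to that symbol alone. Of the 34 genes 32 could be read in this way, out of 19938 genes on the array. Acsl3 shares its probe set with another gene symbol and Acsl1 is not analysed here, so both are without a value. The arrays hold total RNA of Py2T cells, a mouse breast cancer line that was established from a mammary tumour of a mouse carrying the polyoma middle T transgene in the mammary epithelium. One group of 2 arrays came from cells left untreated, and the other group of 2 arrays from cells given TGFβ at 2 ng/ml for 5 days. All cells grew in the same medium with fetal calf serum, which itself supplies lipids. The labels name neither the TGFβ isoform nor anything else that sets the replicates apart beyond calling them biological, so a p-value here gauges the spread among these samples, which may be technical, and the number of arrays limits the precision.

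Cells make fatty acids in the cytosol. ATP citrate lyase (Acly) releases acetyl-CoA from citrate, acetyl-CoA carboxylases (Acaca, Acacb) turn it into malonyl-CoA, and fatty acid synthase (Fasn) assembles palmitate from it. Elongases and desaturases then lengthen the chain and place double bonds, acyl-CoA synthetases activate free fatty acids, and the glycerol phosphate route joins the chains into phospholipids and triglycerides that are kept in lipid droplets. Many of these genes are known targets of the sterol regulatory element binding proteins (SREBPs), which also drive cholesterol synthesis, and the mammary epithelium uses the pathway heavily when it makes milk fat.

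After TGFβ, genes of the pathway moved in both directions. The elongase Elovl4 rose 4.72-fold, and the malic enzyme Me1 and the triglyceride-forming enzyme Dgat2 rose 1.51-fold each. Lpin1, Elovl7, Lipe, Elovl6, Acss2 and Acsl5 fell, by between 2.51-fold and 1.62-fold. The enzymes at the centre of palmitate synthesis, Acaca, Acacb and Fasn, were not called. In all, 3 of the 32 measured genes were called higher and 6 lower at an adjusted p under 0.05 (limma, Benjamini-Hochberg over all genes), and 23 were not called. Over all genes tested 6.49% were called higher and 7.15% lower, 13.6% in either direction, against 9.38% and 18.8% of these genes. The share of all genes includes 9022 of 19938 with both group means under 7, beside 3 of the 32. With the dimmer 50% of genes left out and the fit repeated, 24.6% of the remaining 9969 genes were called. In the fit to all genes, 31% of the 29 lipid genes without both means under 7 were called. These shares thus rest on different fits and different filters. The shares of all genes given beside the further lists below also include the dimmer genes. Leaving out untreated replicate 1 or 2 brought the number called lower to 3 or 5, and leaving out TGFβ replicate 1 or 2 brought it to 7 or 8. The number called higher was 3 in each of these fits. Each of these fits, and each such fit below, left 1 array in a group. The spread then came from the other group, so such a call does not weigh the gap within the reduced group. The median log2 difference of the 32 genes was -0.12, beside 0.01 over all genes. The arrays of the groups did not overlap in 23 of the 32 genes, which was also so in 52.6% of all genes.

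**Figure D1:**
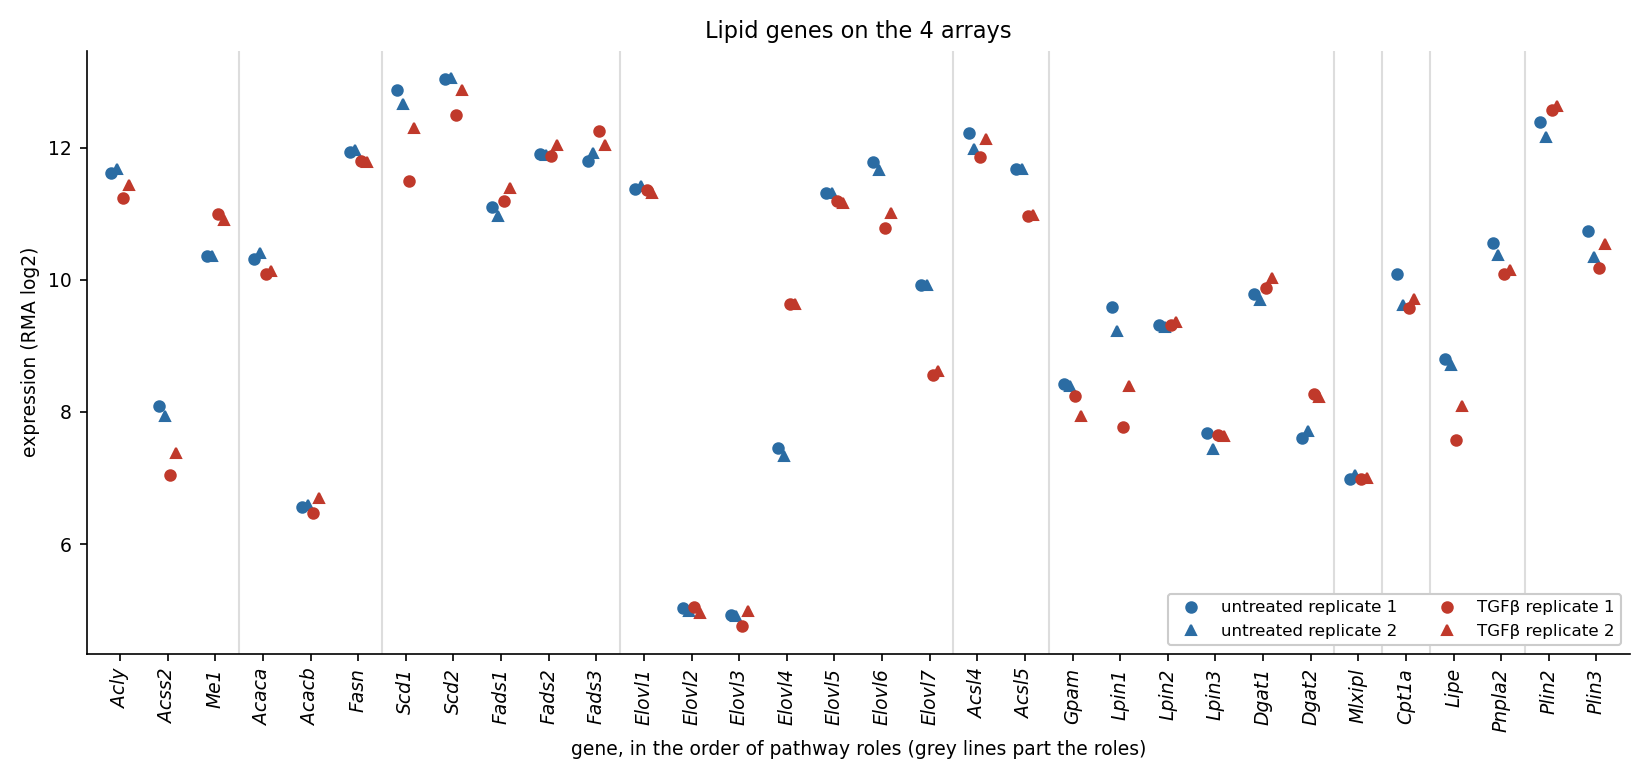
Expression of the 32 measured lipid genes on each of the 4 arrays (vertical axis, RMA log2 value; horizontal axis, genes in the order of their roles). Blue marks are untreated arrays and red marks TGFβ arrays, with circles for replicate 1 and triangles for replicate 2. The red marks of Elovl4, Me1 and Dgat2 stand above the blue ones, and those of Elovl6, Elovl7, Acsl5, Lpin1, Acss2 and Lipe below.

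The medians of the 4 arrays over all probe sets lay between 6.74 and 6.76, and values ran from 3.33 to 14.29. A mean under 7 is called dim below, since 53.1% of all probe sets lie there and no detection calls came with the values. Markers listed for the cell type included bright epithelial genes on all arrays. The keratins Krt7, Krt8 and Krt18 stayed between 13.20 and 13.61 on the 4 arrays, while the mean over 6 epithelial markers went from 12.43 and 12.39 in untreated cells to 11.49 and 11.75 under TGFβ, with Cdh1, Epcam and Cldn7 called lower (Cdh1 not with untreated replicate 1 left out, adjusted p = 0.057). Of the 4 mammary basal or myoepithelial markers Krt5, Acta2 and Trp63 were dim and Krt14 was bright. Krt14 read 10.79 and 11.49 in untreated cells and 10.16 and 9.36 under TGFβ, and fell by 1.38 (adjusted p = 0.043), though not with untreated replicate 2 or TGFβ replicate 2 left out (adjusted p = 0.12 and 0.099). All 6 measured adipocyte markers (Adipoq, Lep, Plin1, Cidec, Fabp4, Retn) and all 4 endothelial markers were dim in both groups. Among macrophage and leukocyte markers Ptprc, Adgre1, Itgam and Lyz2 were dim, and Csf1r lay between 7.08 and 7.90. Cd68 read 9.63 and 8.87 in untreated cells and 7.60 and 8.33 under TGFβ. Its groups did not overlap, and the difference of -1.29 missed the threshold (adjusted p = 0.052). Cd68 was called lower after median centring (adjusted p = 0.030) and with the dimmest 25% or the dimmer 50% of genes left out. It was not called after cyclic loess or repeated quantile normalization (adjusted p = 0.064 in each). With any 1 array left out the difference lay between -1.67 and -0.91. Of 6 fibroblast markers Pdgfrb and Col1a1 were called higher, Col1a1 not with untreated replicate 1 or either TGFβ replicate left out (adjusted p = 0.13, 0.096 and 0.061). Pdgfrb rose from a dim untreated mean of 6.74. Pdgfra (0.49, adjusted p = 0.097) and Col1a2 (0.07, overlapping groups) were not called, and Dcn and Lum were dim in both groups. In a bulk sample, fewer cells of a type and less RNA per cell cannot be told apart, and the part of the epithelial, basal, macrophage and fibroblast markers in the lipid gene results was not tested.

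Precursor supply went both ways. Me1, the cytosolic malic enzyme that makes NADPH for fatty acid synthesis, read 10.36 on both untreated arrays and 10.99 and 10.91 on the TGFβ arrays (RMA log2 values here and below). The TGFβ arrays were higher with no overlap, a log2 difference of 0.59 ± 0.07 (SE, n = 2 per group, adjusted p = 0.0063), and the gene's second probe set differed by 0.62. Acss2, which makes acetyl-CoA from acetate, read 8.10 and 7.93 in untreated and 7.04 and 7.38 in TGFβ-treated cells. Acss2 fell by 0.81 ± 0.13 (adjusted p = 0.015), to the edge of the dim range, and was not called with untreated replicate 1 left out (-0.72, adjusted p = 0.061). Acly read 11.61 and 11.67 against 11.24 and 11.43, so its groups did not overlap, but the difference of -0.31 (95% interval -0.54 to -0.08) was not called (adjusted p = 0.094).

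The core enzymes of palmitate synthesis differed little. Acaca, the cytosolic acetyl-CoA carboxylase, read 10.32 and 10.40 in untreated cells and 10.08 and 10.13 under TGFβ, a log2 difference of -0.26 (95% interval -0.44 to -0.07, adjusted p = 0.086). Its dimmer probe set differed by -0.29. Fasn read 11.94 and 11.97 against 11.80 and 11.79. The groups of Fasn were apart but close, at a difference of -0.16 (95% interval -0.34 to 0.02, adjusted p = 0.23), so a fall of more than 0.34 lies outside the interval of the fit. Acacb, the carboxylase of the mitochondrial surface whose malonyl-CoA restrains fatty acid oxidation, was dim with both means under 7 (difference 0.02), and a change in it would be hard to detect. Mlxipl, which encodes the carbohydrate response factor ChREBP, lay at the dim border, between 6.98 and 7.05 on all 4 arrays.

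The elongases went both ways. Each of the 7 ELOVL enzymes catalyses the condensing step that lengthens a fatty acyl-CoA, and they differ in the chains they accept. Elovl4, which makes the very long chains of skin ceramides and retinal lipids, read 7.46 and 7.34 in untreated cells and 9.63 and 9.64 under TGFβ. Both TGFβ arrays were far above both untreated arrays, with a log2 difference of 2.24 ± 0.08 (SE, adjusted p = 2.5e-04). The difference stayed between 2.18 and 2.30 when any 1 array was left out.

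Elovl7, which lengthens saturated and monounsaturated chains, went the other way. Elovl7 read 9.91 on both untreated arrays and 8.56 and 8.62 on the TGFβ arrays, and fell by 1.33 ± 0.07 (adjusted p = 5.5e-04). Elovl6, which takes palmitate to stearate and is a known SREBP target, read 11.78 and 11.66 against 10.79 and 11.01. Elovl6 fell by 0.82 ± 0.10 (adjusted p = 0.0065), and neither fall lost its call when an array was left out (highest adjusted p = 0.0028 for Elovl7 and 0.030 for Elovl6).

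The other elongases were not called. Elovl1, which makes saturated very long chains, lay between 11.32 and 11.42 on the 4 arrays (difference -0.06, 95% interval -0.24 to 0.12), and Elovl5, which lengthens polyunsaturated chains, between 11.16 and 11.31 (-0.14, 95% interval -0.31 to 0.04). Both were bright, and their intervals leave no room for a change of the size seen in Elovl6 or Elovl7. Elovl2 and Elovl3 were dim, between 4.75 and 5.05 on all arrays, so their differences of 0.00 and -0.05 carry little information.

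The sequence upstream of the start site is shown for the 3 elongases that changed, since they moved in opposite directions. Each run is the 250 bases before the annotated RefSeq start in GRCm38.p6, read 5′ to 3′ on the gene's strand, with matches in capitals. They lie at chr9:83806306-83806555 on the minus strand (Elovl4), chr13:108214154-108214403 on the plus strand (Elovl7) and chr3:129532136-129532385 on the plus strand (Elovl6).
Elovl4: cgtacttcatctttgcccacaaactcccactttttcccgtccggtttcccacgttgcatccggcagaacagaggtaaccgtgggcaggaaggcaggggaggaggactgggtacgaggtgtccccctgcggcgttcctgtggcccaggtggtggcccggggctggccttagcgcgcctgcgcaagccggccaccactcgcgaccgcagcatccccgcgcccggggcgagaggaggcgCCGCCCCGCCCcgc
Elovl7: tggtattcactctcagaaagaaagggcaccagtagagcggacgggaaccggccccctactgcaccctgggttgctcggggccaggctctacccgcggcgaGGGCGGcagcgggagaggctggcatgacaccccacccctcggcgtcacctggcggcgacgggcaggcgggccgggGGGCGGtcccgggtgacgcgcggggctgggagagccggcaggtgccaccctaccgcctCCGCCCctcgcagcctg
Elovl6: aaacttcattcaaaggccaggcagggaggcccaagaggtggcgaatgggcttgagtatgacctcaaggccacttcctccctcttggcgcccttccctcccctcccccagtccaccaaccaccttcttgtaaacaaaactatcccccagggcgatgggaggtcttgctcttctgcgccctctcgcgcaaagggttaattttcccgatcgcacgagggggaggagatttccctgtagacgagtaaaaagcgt
The letters searched, on both strands, were the sterol regulatory element core TCACNCCAC, the E-box CACGTG, the CCAAT box CCAAT and the GC box GGGCGG. The Elovl4 stretch, with 69.6% G and C, held 2 GC boxes on the opposite strand that overlap by a base, from -14 to -9 and from -9 to -4 counted from the start. The Elovl7 stretch, with 73.6% G and C, held 3 GC boxes, from -150 to -145, -75 to -70 and, on the opposite strand, -17 to -12. The Elovl6 stretch, with 56.4% G and C, held none of the 4 motifs. Over all 38 promoters that the table gives for 28 of the 34 genes, 57.9% of the stretches held a GC box and 42.1% a CCAAT box, beside 32.7% and 33.8% of all 32851 promoters. The sterol element core was in 2 of the 38 (Mlxipl and Acsl1) and in 1.05% of all promoters, and the E-box in 4 (Elovl5, Lpin2, Mlxipl and Lipe) and in 6.02%. A match describes letters in this window and is not a binding site, and a missing match does not show that a gene lacks such a site.

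The desaturases were not called, and the stearoyl-CoA desaturases varied most between TGFβ arrays. Scd1, which makes oleate from stearate, read 12.88 and 12.66 in untreated cells and 11.49 and 12.29 under TGFβ. Both TGFβ arrays were lower, but 0.80 apart from each other, and the difference of -0.88 ± 0.25 (95% interval -1.51 to -0.25) was not called (adjusted p = 0.082). The difference was -1.28 without TGFβ replicate 2 and -0.48 without TGFβ replicate 1. Its relative Scd2 read 13.05 on both untreated arrays and 12.49 and 12.88 under TGFβ, a difference of -0.37 (adjusted p = 0.15). That difference was -0.56 without TGFβ replicate 2 and -0.17 without TGFβ replicate 1. Scd1 and Scd2 are close in sequence and lie near each other in the genome with 1 protein-coding gene between them, and probes may read both in part.

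The fatty acid desaturases of polyunsaturated chains form a cluster of 3 consecutive protein-coding genes. Fads1, the delta-5 desaturase, read 11.10 and 10.96 against 11.19 and 11.39, a difference of 0.26 (95% interval 0.01 to 0.51, adjusted p = 0.18). Fads2, the delta-6 desaturase, lay between 11.87 and 12.03 with overlapping groups (0.06, adjusted p = 0.78). Fads3, whose substrates include sphingoid bases, read 11.81 and 11.92 against 12.25 and 12.03 (0.28, 95% interval 0.03 to 0.52, adjusted p = 0.15). The differences of these genes were positive where those of Scd1 and Scd2 were negative, without any of the 5 passing.

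Of the acyl-CoA synthetases 2 were measured. Acsl5, a mitochondrial and endoplasmic reticulum form that feeds triglyceride synthesis, read 11.67 on both untreated arrays and 10.96 and 10.98 on the TGFβ arrays. The arrays of a group were within 0.02 of each other, and Acsl5 fell by 0.70 ± 0.07 (adjusted p = 0.0031). Acsl4, which prefers arachidonate and helps place polyunsaturated chains in membranes, read 12.22 and 11.98 against 11.87 and 12.14, with overlapping groups and a difference of -0.10 (95% interval -0.41 to 0.22).

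Triglyceride assembly held a fall, a rise and genes that were not called. Lpin1, a phosphatidate phosphatase that makes diacylglycerol and also acts in the nucleus, read 9.59 and 9.22 in untreated cells and 7.77 and 8.39 under TGFβ. Lpin1 fell by 1.33 ± 0.22 (adjusted p = 0.016), with the TGFβ arrays 0.62 apart, and it was not called with untreated replicate 1 left out (-1.15, adjusted p = 0.054). Its relatives Lpin2, between 9.29 and 9.35, and Lpin3, between 7.44 and 7.67, differed by 0.03 (95% interval -0.14 to 0.21) and 0.09 (95% interval -0.16 to 0.33). Of the 3 lipins Lpin1 was the one called.

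Dgat2, which catalyses the last step to triglyceride and works with newly made fatty acids, read 7.60 and 7.71 against 8.27 and 8.23. Dgat2 rose by 0.60 ± 0.08 (adjusted p = 0.0074), and the call held without any 1 of the arrays (highest adjusted p = 0.042). Dgat1, an unrelated enzyme with the same reaction, read 9.78 and 9.69 against 9.87 and 10.02, a difference of 0.21 (95% interval -0.01 to 0.43, adjusted p = 0.21). Gpam, the mitochondrial acyltransferase that starts the route, read 8.42 and 8.40 against 8.24 and 7.94. Its difference of -0.32 was not called (adjusted p = 0.14), and was -0.47 without TGFβ replicate 1 and -0.17 without TGFβ replicate 2. Gpam and Acsl5 lie near each other in the genome, with 2 protein-coding genes between them.

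On the side of release and oxidation, Lipe, the hormone-sensitive lipase that cleaves diacylglycerol, read 8.80 and 8.72 in untreated cells and 7.57 and 8.09 under TGFβ. Lipe fell by 0.92 ± 0.17 (adjusted p = 0.022), with TGFβ arrays 0.52 apart. Leaving out untreated replicate 1 or 2 ended that call (-0.88, adjusted p = 0.077, and -0.97, adjusted p = 0.054). Pnpla2, the adipose triglyceride lipase that acts before Lipe, read 10.55 and 10.38 against 10.08 and 10.14, and its difference of -0.35 (95% interval -0.57 to -0.13) missed the threshold at adjusted p = 0.055. Cpt1a, which admits fatty acids to mitochondria, read 10.08 and 9.61 against 9.57 and 9.70 with overlapping groups (-0.21, 95% interval -0.60 to 0.19).

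The droplet coat proteins were not called. Plin2, the main coat protein of droplets outside fat tissue, read 12.39 and 12.16 in untreated cells and 12.57 and 12.64 under TGFβ, higher without overlap at a difference of 0.33 (95% interval 0.08 to 0.58, adjusted p = 0.093). Plin3, which binds nascent droplets, read 10.74 and 10.35 against 10.17 and 10.54, with overlapping groups (-0.19, 95% interval -0.62 to 0.24).

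**Figure D2:**
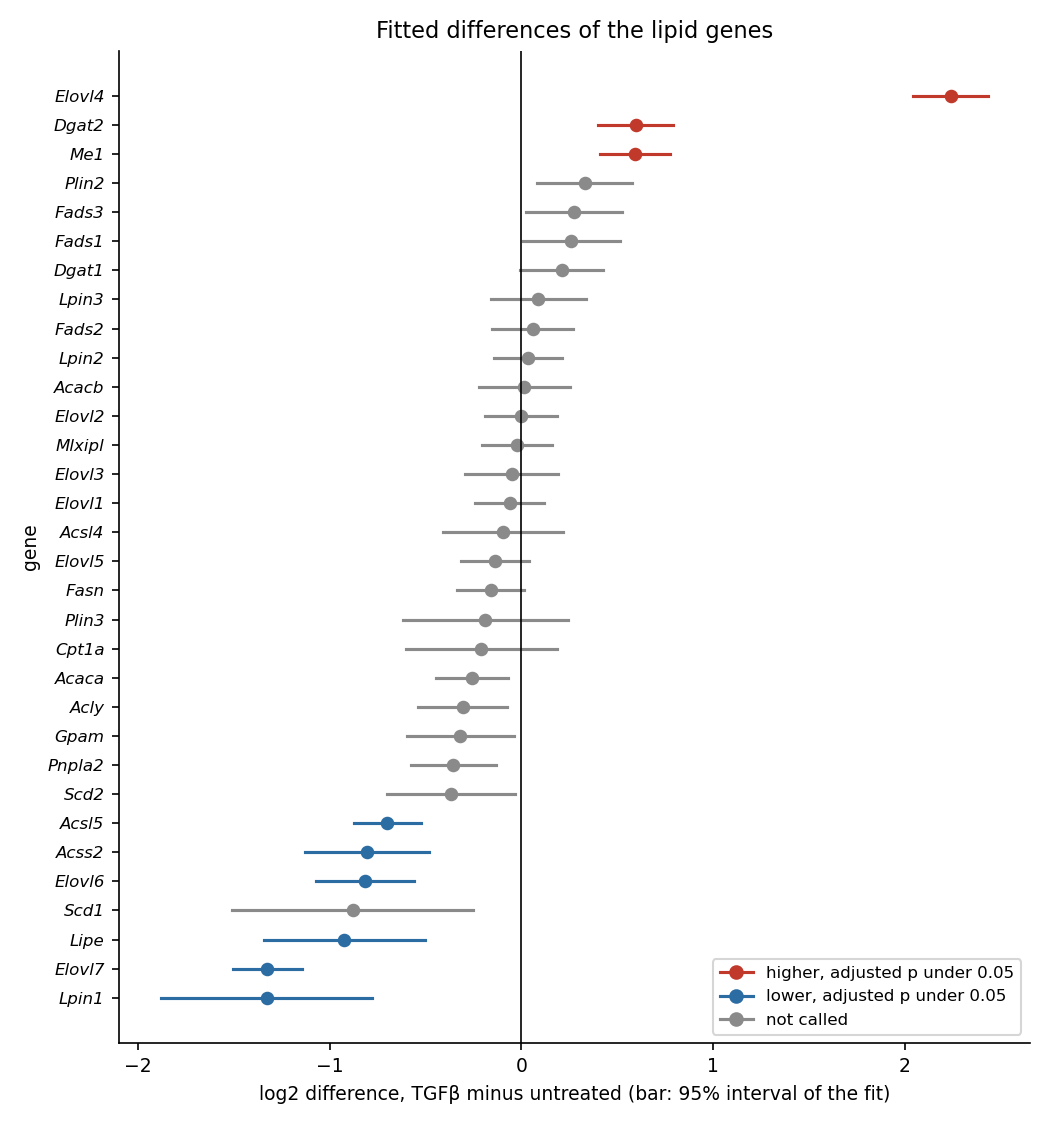
Log2 difference between TGFβ and untreated arrays for each of the 32 measured genes, with the 95% interval of the limma fit (bars), ordered from lowest to highest. Red marks the 3 genes called higher, blue the 6 called lower and grey the 23 not called; Elovl4 stands apart at 2.24, and Lpin1 and Elovl7 are lowest at -1.33.

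Several of the genes that were lower under TGFβ differed between the TGFβ replicates in the same direction. TGFβ replicate 1 was below TGFβ replicate 2 in 23 of the 32 genes (71.9%), beside 49.1% of all genes. The share was 71.7% over the 120 measured genes of the further lists below, so it is not particular to these genes. Apart from cholesterol synthesis it ran from 52.6% in the regulators to 76.9% in the droplet, lipolysis and uptake genes. It was 83.3% in the 6 epithelial markers and 25% in the 4 basal ones. The macrophage and the fibroblast markers each had 66.7%, and the dim endothelial and adipocyte markers 75% and 100%. The median gap between the TGFβ arrays was 0.14 in these genes and that between the untreated arrays 0.08, beside 0.10 and 0.09 over all genes. The widest gaps were those of Scd1 (0.80), Lpin1 (0.62) and Lipe (0.52), and Scd2 followed at 0.39. Elovl4, Elovl7, Acsl5, Me1 and Dgat2, which were called, had TGFβ arrays within 0.08 of each other. Of the other called genes Elovl6 had a gap of 0.23 and Acss2 of 0.34, and Lpin1 and Lipe were called despite their wide gaps. A narrow gap itself makes a call more likely. In the list of cholesterol synthesis enzymes TGFβ replicate 1 was the lower in 17 of 17 measured genes, with a median gap of 0.47 between the TGFβ arrays and 0.07 between the untreated ones. What sets the TGFβ replicates apart was not tested.

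**Figure D3:**
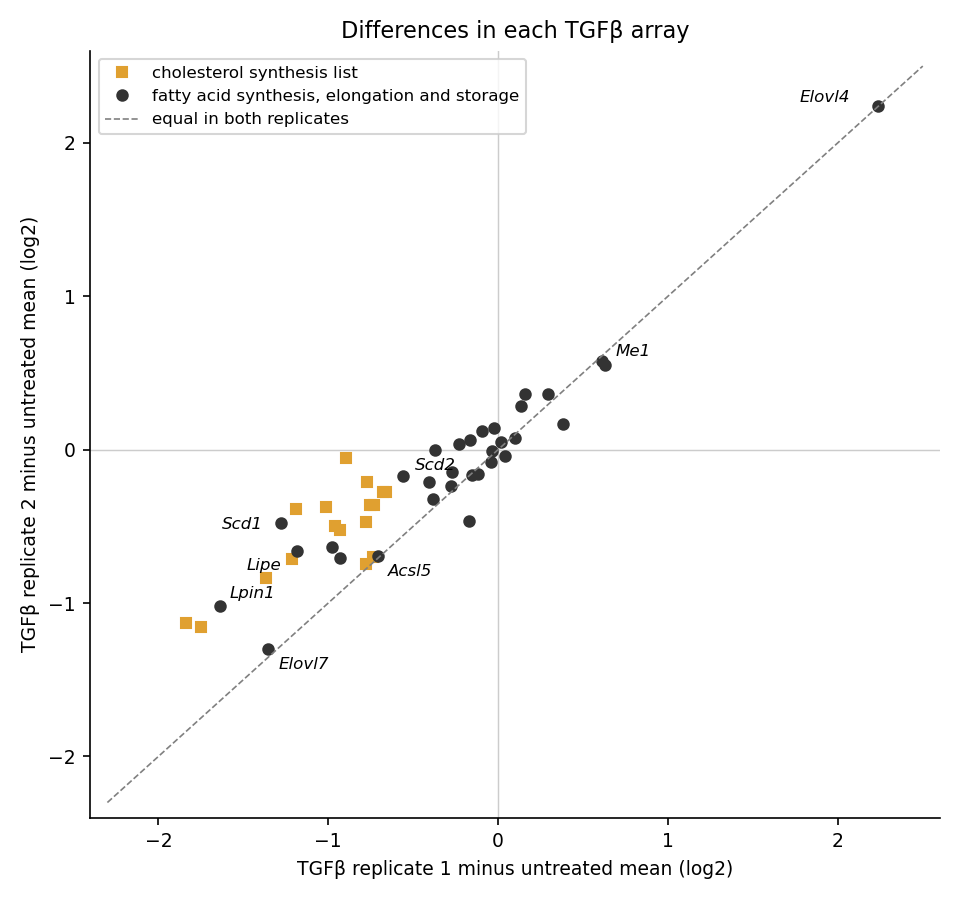
Difference from the untreated mean in TGFβ replicate 1 (horizontal axis, log2) and in TGFβ replicate 2 (vertical axis, log2) for the 32 lipid genes (black circles) and 17 cholesterol synthesis genes (orange squares); the dashed line marks equal values. Elovl4, Elovl7, Acsl5 and Me1 lie on or close to the line, while Scd1, Lpin1, Lipe and the cholesterol genes lie mostly above it, with replicate 1 the lower.

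The regulators of the pathway were read as a list of 21 genes, 19 of them measured, with each gene tested on its own. Of these 1 rose, 4 fell and 14 were not called, with a median difference of -0.25. Called regulators made up 26.3% of the list (5.26% higher and 21.1% lower), beside 13.6% of all genes (6.49% and 7.15%). Insig2, which holds SREBPs in the endoplasmic reticulum, fell by 0.82 (adjusted p = 0.026), the retinoid receptor Rxra, partner of the LXR and PPAR receptors, fell by 0.52 (adjusted p = 0.017), Srebf2 fell by 0.45 (adjusted p = 0.031) and Srebf1 fell by 0.35 (adjusted p = 0.038). Prkaa1, a catalytic subunit of the AMP-activated kinase that inhibits acetyl-CoA carboxylase, rose by 0.50 (adjusted p = 0.021). Leaving out untreated replicate 1 ended these 5 calls, with adjusted p of 0.099 for Insig2, 0.087 for Rxra, 0.12 for Srebf2, 0.17 for Srebf1 and 0.10 for Prkaa1. Leaving out untreated replicate 2 or TGFβ replicate 1 left 2 regulators called lower. Leaving out TGFβ replicate 2 also ended the call of Rxra (adjusted p = 0.056), and leaving out TGFβ replicate 1 those of Srebf2 (adjusted p = 0.092) and Prkaa1 (adjusted p = 0.079). Srebf2 missed the threshold with untreated replicate 2 left out as well (adjusted p = 0.11). Srebf1, whose main product drives fatty acid genes, missed the threshold with any 1 array left out (adjusted p between 0.056 and 0.17), as well as after cyclic loess (adjusted p = 0.052) or repeated quantile normalization (adjusted p = 0.053). Insig1, itself an SREBP target, read 12.22 and 11.99 against 11.09 and 11.83, a difference of -0.64 (adjusted p = 0.16). That difference was -1.02 without TGFβ replicate 2 and -0.27 without TGFβ replicate 1. The nuclear receptor genes Nr1h3 (0.09, dim) and Pparg (0.25, adjusted p = 0.37) were not called. Pparg differed by 0.46 without TGFβ replicate 1 and by 0.04 without TGFβ replicate 2.

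Further enzymes of synthesis and elongation gave 3 rises, 1 fall and 15 genes that were not called among 19 measured (median -0.01), or 21.1% called beside 13.6% of all genes. The acyl-CoA synthetase genes Acsl6 and Acsbg1 rose by 0.94 (adjusted p = 0.0066) and 0.75 (adjusted p = 0.0096), Acsl6 from a dim untreated mean of 6.32. Mcat, the malonyl transferase of mitochondrial fatty acid synthesis, rose by 0.52 (adjusted p = 0.010), but not with untreated replicate 1 left out (adjusted p = 0.061). The dehydratase gene Hacd4 fell by 0.43 (adjusted p = 0.026) within the dim range, and leaving out untreated replicate 1 or 2 or TGFβ replicate 2 gave it adjusted p of 0.11, 0.11 and 0.079. The number called lower in this list was 3 without TGFβ replicate 2.

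Phospholipid and glycerolipid assembly enzymes gave 2 rises, 6 falls and 11 genes that were not called among 19 measured, with a median of -0.14. That is 42.1% called (10.5% higher and 31.6% lower), beside 13.6% of all genes. Lpcat4, an acyltransferase that remodels phospholipids, fell 2.88-fold, from 11.07 ± 0.15 to 9.55 ± 0.02 (mean ± SD, n = 2, adjusted p = 7.1e-04). Lpcat2, a relative that also makes platelet-activating factor, fell by 0.99 (adjusted p = 0.016) and the lysophospholipid acyltransferase gene Mboat1 fell by 0.80 (adjusted p = 0.0046). Mogat2, which forms diacylglycerol from monoacylglycerol, rose by 0.69 (adjusted p = 0.012), and Mboat2 rose by 0.72 within the dim range (adjusted p = 0.032). Lpcat2, Mogat2 and Mboat2 lost their calls without untreated replicate 1 (adjusted p = 0.060, 0.055 and 0.10), and Mboat2 also without untreated replicate 2 (adjusted p = 0.096) and after repeated quantile normalization (adjusted p = 0.051). Leaving out untreated replicate 1 thus ended both higher calls and left 3 genes called lower.

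Droplet, lipolysis and uptake genes gave 1 rise, 3 falls and 22 genes that were not called among 26 measured, 16 of them dim in both groups (median 0.03). The 15.4% called in this list is close to the 13.6% of all genes. Bscl2, which encodes seipin, a protein of droplet formation, fell by 0.97 (adjusted p = 0.0030) and the fatty acid binding protein Fabp5 fell by 0.63 (adjusted p = 0.0063). Pnpla3, a relative of Pnpla2, fell by 0.40 to a dim mean of 6.88 (adjusted p = 0.037), but not with any 1 array left out (adjusted p between 0.054 and 0.18). Mgll, the monoacylglycerol lipase of the last lipolytic step, rose by 0.58 within the dim range (adjusted p = 0.010) and lost its call without untreated replicate 1 (adjusted p = 0.054), while 3 genes were called higher without TGFβ replicate 1. The fatty acid transporter Cd36 was dim on all arrays, between 4.43 and 4.47.

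Fatty acid oxidation genes gave 2 rises, 2 falls and 16 genes that were not called among 20 measured (median -0.09). These calls were 10% in each direction, beside 6.49% higher and 7.15% lower of all genes. The isomerase gene Eci1 fell by 0.62 (adjusted p = 0.0068). Acadm, the medium-chain acyl-CoA dehydrogenase, fell by 0.49 (adjusted p = 0.016), while Acadvl, the very-long-chain enzyme, rose by 0.47 (adjusted p = 0.037) and the reductase gene Decr1 by 0.45 (adjusted p = 0.027). For Acadm, leaving out untreated replicate 1 or TGFβ replicate 1 ended the call (adjusted p = 0.086 and 0.062). Acadvl missed the threshold with untreated replicate 1 or 2 or TGFβ replicate 1 left out (adjusted p = 0.069, 0.15 and 0.12), and Decr1 with untreated replicate 2 or either TGFβ replicate left out (adjusted p = 0.12, 0.063 and 0.087).

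Cholesterol synthesis is the sister pathway under SREBP control. Of 17 measured cholesterol genes 0 were called higher, 10 lower and 7 were not called, and all 17 differences were negative (median -0.72, from -1.48 to -0.47). Over all genes 7.15% were called lower, beside 58.8% here, and 9403 of 19938 differences were negative. In the fatty acid genes 21 of 32 differences were negative and 11 positive. The difference between the lists itself was not tested. Lss fell by 1.48, Idi1 fell by 1.45 and Hmgcs1 fell by 1.10, the largest falls of the cholesterol list. Its smallest differences were those of Fdps (-0.47), Tm7sf2 (-0.48), Fdft1 (-0.48) and Msmo1 (-0.49), which were not called. Among the fatty acid genes Fasn differed by -0.16 and Acaca by -0.26 on the same arrays. Others there differed by as much as the cholesterol genes, such as Elovl7 (-1.33), Lpin1 (-1.33) and Elovl6 (-0.82). With untreated replicate 1 or 2 left out 5 or 6 cholesterol genes were called lower, and with TGFβ replicate 2 left out all 17 were.

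**Figure D4:**
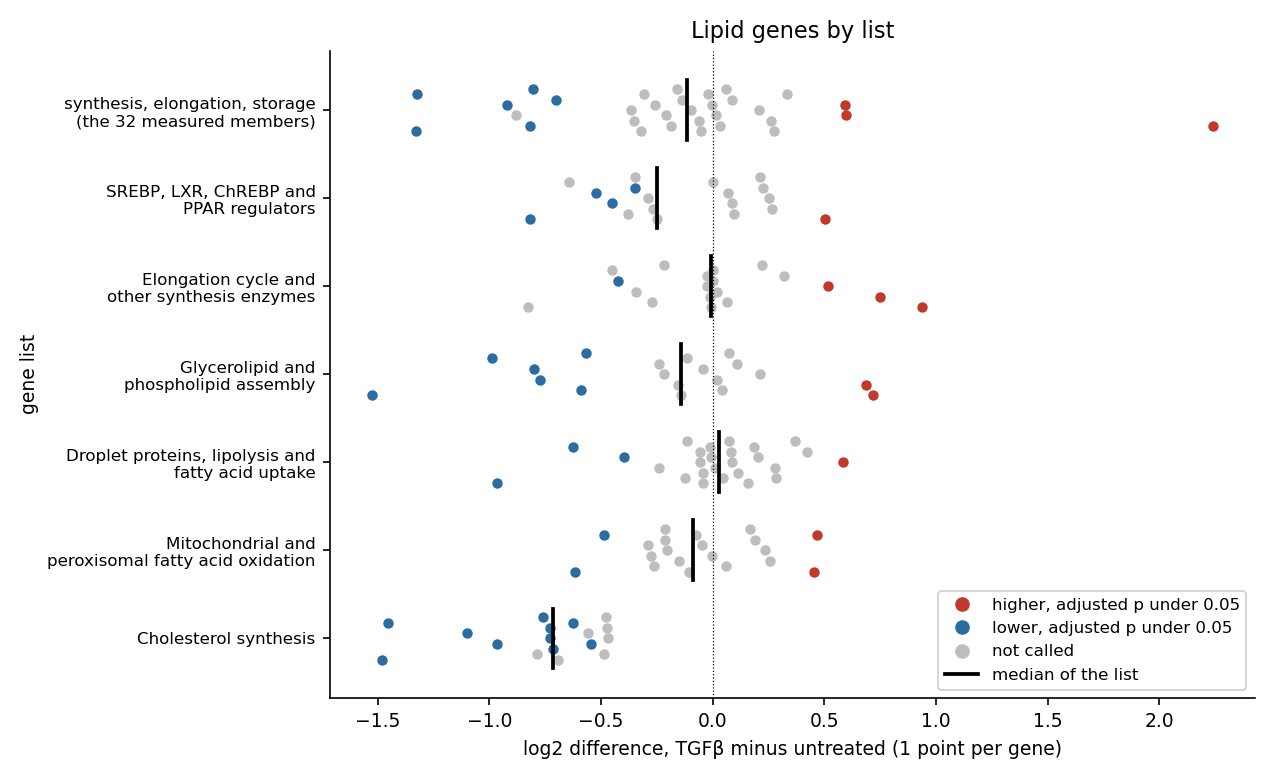
Log2 difference between TGFβ and untreated arrays (horizontal axis) for every measured gene of the 7 lists (rows), with 1 point per gene and a black bar at the list median; points are spread vertically for legibility. Red points were called higher, blue lower and grey not called; the cholesterol synthesis points all lie below 0, while the other lists have points on both sides.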

How the data were processed

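Total RNA of 4 samples, 2 untreated and 2 TGFβ-treated, was labelled with biotin and hybridised to Affymetrix arrays, 1 array per sample. The authors deposited log2 values for each probe set, made with RMA in oligo (an R package) per the submitters' processing notes. The sources used here give no version, annotation or build for this step. RMA equalises the arrays' distributions, so a shift shared by most genes would not be seen.

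Of 35556 probe sets 21789 carry 1 gene symbol in the platform's gene table, 1621 carry several and 12146 none. The brightest single-symbol probe set stood for a gene, which left 19938 genes. The symbols of the 32 measured genes matched the RefSeq table of GRCm38.p6 by Entrez identifier in 32 cases. The test was limma 3.58.1 run under R 4.3.3 (lmFit and eBayes, two-sided, 2 residual and 3.77 prior degrees of freedom), with Benjamini-Hochberg adjustment over all genes and no filter. The smallest two-sided p of an exact permutation test is 0.333 for 2 arrays against 2, and none was used. Errors are standard errors of the fit or standard deviations, and intervals are 95% intervals of the fit. The procedure was tested on 10 simulated data sets with 200 changed genes each. It recovered 12.4% of log2 differences of 0.5, 88.8% of those of 1 and 99% of those of 2. The mean number of false calls was 7.3. In the data 2720 genes were called, so these shares need not hold there. A gene that was not called is not thereby shown to be unchanged.

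The genes and lists were chosen with earlier results of these data known. Named genes are all members, up to 3 called genes with the largest rise and 3 with the largest fall of each further list, and Srebf1, Srebf2, Insig1, Nr1h3, Pparg and Cd36, besides the cell type markers. Some list genes are not analysed here. Promoter sequences are RefSeq's, GRCm38.p6. Alternatives were other scalings, filters on dim genes, the mean of probe sets, another variance model, a replicate block, a threshold of 2-fold and leaving out each array.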

Additional observations from a re-analysis of the deposited data

How the results depend on the processing

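Over 13 alternatives the 32 measured lipid genes gave 410 values, of which 395 kept their side of the threshold, 7 lost a call and 8 gained one, and no called gene changed sign. Elovl4, Elovl6, Elovl7, Acsl5, Me1 and Dgat2 kept their calls under all 13. The 13 include the crossed replicate numbers described below and leave out the 2-fold rule. Among the scalings and filters, Pnpla2 was called without the dimmer 50% of genes (adjusted p = 0.048) and Plin2 with variances fitted robustly against intensity (adjusted p = 0.037). The other gained calls were those of Scd1 and Scd2 without TGFβ replicate 2 and of Gpam without TGFβ replicate 1. Scd1, Pnpla2 and Plin2 also gained one with the crossed replicate numbers described below. A fit without a TGFβ array does not weigh the gap between the TGFβ arrays, which was wide in Scd1. Requiring at least a 2-fold difference left 677 genes in all, 1 lipid gene higher, 2 lower and 4 genes of the further lists, because it is a stricter rule. Leaving out 1 array at a time gave 1535 to 2260 calls over all genes, beside 2720, 3 to 8 lipid genes lower, 3 higher, medians of -0.16 to -0.05, and 14 to 42 calls in the further lists, beside 35; a group left with 1 array took its spread from the other group.

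The replicate numbers are not known to pair the samples. With the replicate block 1624 genes were called in all, and the lipid genes gave 3 higher and 3 lower, with Acss2 (adjusted p = 0.052), Lpin1 (adjusted p = 0.059) and Lipe (adjusted p = 0.052) no longer called. Deviations of samples with the same number correlated at -0.21, and with the numbers crossed, chosen after seeing the data, 3640 genes were called, 4 lipid genes higher and 8 lower. No alternative gave a value for Acsl1 or Acsl3. The dim range limits what can be said of Elovl2, Elovl3 and Acacb.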
